A study of Homo sapiens with 6 samples.

Results

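The genes described here encode the TGF-beta ligands TGFB1 and TGFB2, the receptors TGFBR1, TGFBR2 and TGFBR3, the latent TGF-beta binding proteins LTBP1, LTBP2, LTBP3 and LTBP4, and the matrix protein TGFBI. They are 10 of the 58381 gene IDs in the deposited table. They were chosen by gene name, with earlier results of these data known, and all 10 had enough reads to be tested. The data are RNA-seq libraries of MCF10AT1, an established human breast epithelial line that descends from immortal MCF10A cells carrying an activated HRAS gene. The line was stained for the surface proteins CD24 and CD44 and sorted. One fraction was CD24low and CD44high, the other CD24high and CD44+, and each gave 3 libraries of ribosome-depleted total RNA. In the submitters' sample descriptions the CD24low libraries carry the term CSC and the CD24high libraries the term Bulk. Cells were grown, before the sort, in a medium with horse serum, insulin, EGF, cholera toxin and hydrocortisone. The labels name no difference between the fractions other than the sort. Nor do the labels say whether replicates were grown apart, so a p-value here reflects the spread among these libraries alone, which may be technical.

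TGF-beta is made as a precursor that stays bound to its own cleaved propeptide, and this latent complex is joined to an LTBP that anchors it in the extracellular matrix. Integrins or proteases release the ligand, which binds the type II receptor TGFBR2 and thereby activates the type I receptor TGFBR1; TGFBR3, or betaglycan, is a co-receptor that presents ligand, TGFB2 above all. The active receptors phosphorylate SMAD2 and SMAD3, which enter the nucleus with SMAD4. In breast epithelium the pathway is known both for restraining growth and for driving the epithelial-mesenchymal transition.

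Libraries held 16691162 to 27293177 recovered reads, and values are normalized counts, which are reads divided by a size factor per library. For CD24, the sorting marker, CD24high replicates 1 to 3 had 4043, 2325 and 5687 normalized counts, and CD24low replicates 1 to 3 had 588, 329 and 1370. CD24low replicate 3 thus kept the most CD24 of its group and CD24low replicate 2 the least. CD44 transcript was not higher in the CD44high fraction, with 7878 to 8993 normalized counts in CD24high and 6866 to 8294 in CD24low (log2 difference -0.17, SE 0.12, overlapping). Genes of rRNA type took 7.07% to 10.2% of reads in CD24high replicate 3 and CD24low replicates 1 and 2 (high share) and 1.30% to 2.27% in the other libraries (low share), and differences are also given within these sets, where CD24high replicate 3 or CD24low replicate 3 is alone on its side. The 6 epithelial markers checked were all expressed, with sums of 92983 to 114402 normalized counts in CD24high and 65032 to 99579 in CD24low. Of these, CDH1 (3158 to 4142 in CD24high, 1332 to 2812 in CD24low) was lower in CD24low without overlap. So were EPCAM (3525 to 4081 and 1638 to 3473) and KRT5 (28018 to 31907 and 22521 to 25817), as were 9.32% of all genes tested. KRT14, KRT8 and KRT18 overlapped. The 8 fibroblast markers summed to 52.6 to 359 in CD24high and 887 to 3839 in CD24low. DCN (decorin) made up most of each sum except in CD24high replicate 3, where it had 10.2. Without DCN the other 7 came to 24.9 to 42.4 and 41.1 to 135; LUM had 0 reads in every library, and COL1A2, THY1 and PDGFRA did not exceed 0.83, 0.99 and 3.82.

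LTBP1, TGFB1, TGFBR3 and TGFBI were higher in CD24low cells, with no overlap between the groups, while TGFB2, the signalling receptors TGFBR1 and TGFBR2 and the other LTBPs overlapped. Differences are given as CD24low minus CD24high of log2 (normalized count + 1). They were 1.79 (SE 0.36) for LTBP1, 1.28 (SE 0.35) for TGFB1, 0.91 (SE 0.29) for TGFBR3 and 0.56 (SE 0.18) for TGFBI. The remaining 6 genes lay between -0.24 and 0.27, and the median of the 10 was 0.26, beside -0.0066 for all genes tested. In limma's test over 16047 genes, 0 of the 10 genes passed an adjusted p of 0.05, as did 0.0% of all genes tested, and edgeR's quasi-likelihood test called 0 as well. At an unadjusted limma p below 0.05 there were 4 of the 10, all higher in CD24low, against 6.34% of all genes tested in that direction; edgeR had 14.1% of all genes below that p in either direction. DESeq2 called 3 of the 10, LTBP1, TGFB1 and TGFBR3, all higher in CD24low, against 2.51% of all genes tested, 1.36% higher and 1.15% lower. Groups did not overlap in the higher direction for 4 of the 10 and in the lower direction for 0, against 10.2% and 9.32% of all genes tested. With any 1 library left out, DESeq2 called 1 of the 10 in 5 of 6 cases and the same 3 in the other, that without CD24low replicate 3, where it called 5.24% of all genes. The calls were TGFBI without CD24high replicate 1 (1.4% of all genes called), LTBP1 without CD24low replicate 2 (0.854%), and TGFB1 without CD24high replicate 2 (1.51%), CD24high replicate 3 (1.4%) or CD24low replicate 1 (1.21%). Without CD24low replicate 3 limma too called LTBP1, TGFB1 and TGFBR3 (2.28% of all genes), and without both libraries numbered 3 it called LTBP1 and TGFB1 (0.642%).

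**Figure D1:**
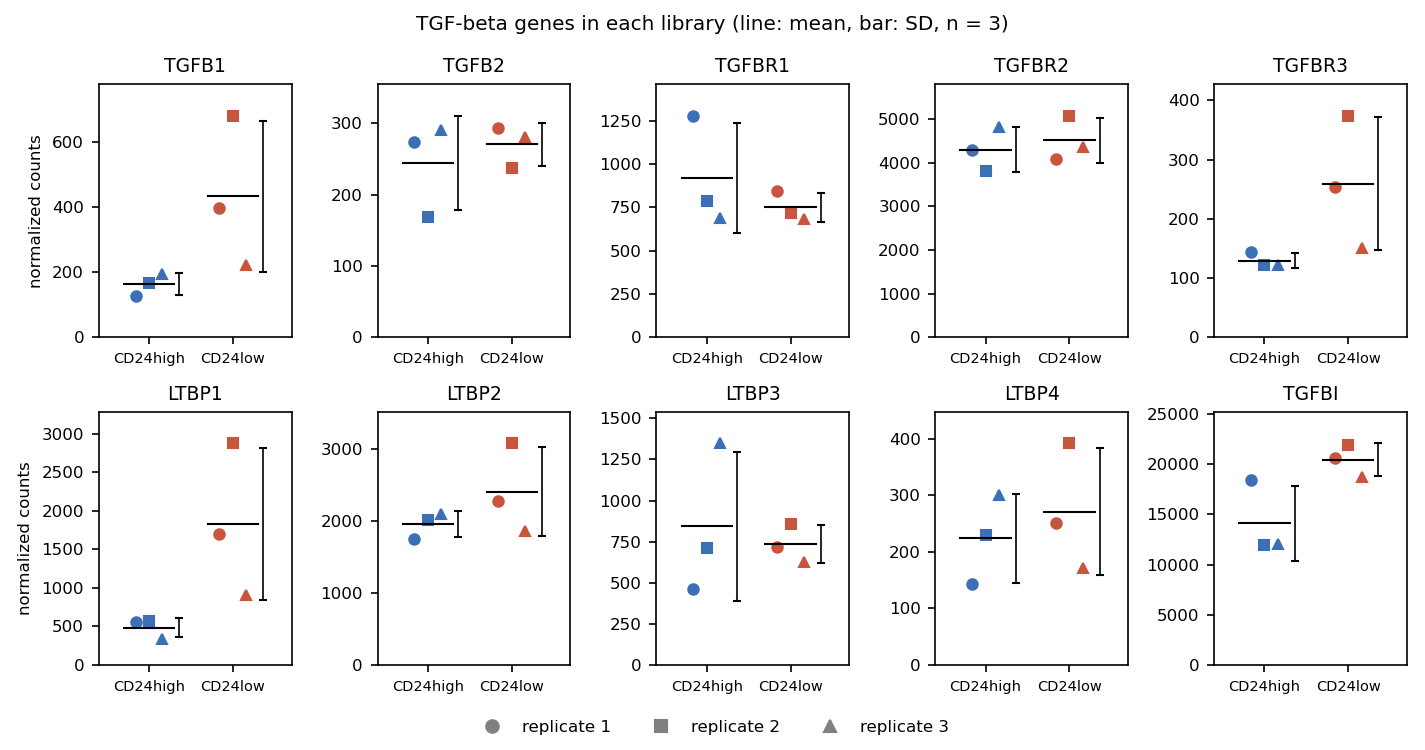
Normalized counts of each of the 10 genes in every library, by sorted fraction on the x axis, with the mean (line) and SD (bar) of 3 libraries; marker shape gives the replicate number. The CD24low points of TGFB1, TGFBR3, LTBP1 and TGFBI all lie above their CD24high points. CD24low replicate 3 is the lowest of its group for each of these 4 genes, and also for TGFBR1, LTBP2, LTBP3 and LTBP4.

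The bases upstream of RefSeq starts of the genes called by DESeq2 are shown because these genes were higher together. They come from RefSeq on GRCh38.p14, 5′ to 3′ on the strand of the gene, and each is the longest run of a window of 250 bases that is clear of GENCODE 29 exons. Capitals mark CAGAC, the core of SMAD binding sites, TGTGGT, a core bound by RUNX proteins, and GGGCGG, the GC box bound by SP1, each searched on both strands with overlapping matches counted.
LTBP1, upstream start, chr2:32946703-32946952, plus strand: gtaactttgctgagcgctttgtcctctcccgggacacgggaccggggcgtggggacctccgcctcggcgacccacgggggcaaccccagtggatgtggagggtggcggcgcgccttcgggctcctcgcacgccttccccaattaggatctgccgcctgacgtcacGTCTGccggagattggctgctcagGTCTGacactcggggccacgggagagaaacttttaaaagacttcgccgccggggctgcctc
LTBP1, internal start, chr2:33134506-33134595, plus strand: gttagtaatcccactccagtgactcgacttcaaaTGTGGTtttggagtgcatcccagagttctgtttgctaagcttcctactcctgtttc
TGFB1, chr19:41353923-41354168, minus strand: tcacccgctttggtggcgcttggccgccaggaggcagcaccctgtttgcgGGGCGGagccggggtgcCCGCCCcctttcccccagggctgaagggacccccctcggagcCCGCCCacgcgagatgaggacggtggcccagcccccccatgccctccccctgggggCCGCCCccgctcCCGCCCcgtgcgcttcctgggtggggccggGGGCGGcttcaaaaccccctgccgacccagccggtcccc
TGFBR3, chr1:91886280-91886401, minus strand: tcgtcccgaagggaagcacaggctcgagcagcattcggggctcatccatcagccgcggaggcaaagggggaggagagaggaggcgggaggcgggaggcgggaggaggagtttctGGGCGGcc
LTBP1 had 3 windows, 1 at its upstream start and 2 overlapping ones inside the gene, of which the stretch with TGTGGT is shown. The TGFBR3 stretch too belongs to an internal start, as it lies within the GENCODE 29 bounds of the gene (91680343 to 91906335). The upstream LTBP1 stretch held 2 matches of CAGAC and the TGFB1 stretch 6 of GGGCGG, with none of the other motifs. Over whole windows of 250 bases, all 10 genes had at least 1 window, 22 windows in all. CAGAC was in 9 of the 22, against 38.0% of 35116 windows of all genes, and GGGCGG in 13, against 42.6%. TGTGGT was in 1, against 11.0% of all windows: the LTBP1 window behind the internal stretch, which held 2 matches of TGTGGT and 1 of CAGAC. The other internal LTBP1 window held 1 match of CAGAC. Some genes, such as TGFBR1 and LTBP1, had several windows. By gene, CAGAC was in windows of 4 of the 10 and GGGCGG in those of 8, counts to which the shares of all windows do not apply. A match is a description of letters, not a binding site. Counts are per gene, so reads from the upstream and the internal LTBP1 starts cannot be told apart here.

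Of the ligands, TGFB1 was higher in CD24low cells and TGFB2 overlapped between the groups. TGFB1 (ENSG00000105329.9, chromosome 19, 41301587 to 41353911, minus strand, hg38) had 127, 167 and 196 normalized counts in CD24high replicates 1 to 3 and 398, 682 and 221 in CD24low replicates 1 to 3. Its lowest CD24low library, replicate 3, lay just above its highest CD24high library, while CD24low replicate 2 had the most. Means were 163 ± 34.6 and 434 ± 232 (SD, n = 3), and the fold of 2.43 had a 95% interval of 1.42 to 4.16. Limma's adjusted p was 0.18 and DESeq2's 0.0023. At low rRNA share the TGFB1 difference was 0.60 and at high share 1.41; it was 0.88 without CD24low replicate 2. Some 215 exonic bases of TGFB1 are shared with HNRNPUL1 on the other strand, which had 4059 to 4813 normalized counts. The strand setting of the counting is not given in the sources used here, so reads in those bases are uncertain.

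TGFB2 (ENSG00000092969.11, chromosome 1, 218346235 to 218444619, plus strand), the isoform that depends most on betaglycan, had 274, 168 and 291 normalized counts in CD24high replicates 1 to 3 and 294, 237 and 280 in CD24low replicates 1 to 3. Its CD24low values fell within or just above the CD24high range. The difference of 0.18 (SE 0.21; fold 1.13, 95% interval 0.81 to 1.58) did not pass limma's test (adjusted p = 0.75), and it was -0.068 without CD24high replicate 2. The transcript TGFB2-OT1, with 29.6 to 59.7 normalized counts, overlaps 1371 exonic bases of TGFB2 on the same strand, so reads there are uncertain. TGFB3, the other TGF-beta isoform, was scarce, with 8.81 to 16.1 normalized counts over the 6 libraries.

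The balance of the ligands differed between single libraries as much as between the groups. The log2 ratio of TGFB2 to TGFB1 was 1.10, 0.0085 and 0.57 in CD24high replicates 1 to 3 and -0.44, -1.52 and 0.34 in CD24low replicates 1 to 3. TGFB2 counts exceeded TGFB1 counts in all CD24high libraries and in CD24low replicate 3, and fell below them in CD24low replicates 1 and 2. The groups overlapped, and for the difference of -1.10 the exact permutation test gave a two-sided p of 0.2 (0.4 adjusted over 2 ratios), where 3 against 3 libraries allow no p below 0.1. Scaled to exon length, TGFB1 made up 41.6% to 59.0% of the TGFB1, TGFB2 and TGFB3 level in CD24high libraries and 54.3% to 81.2% in CD24low libraries. On that scale TGFB2 exceeded TGFB1 only in CD24high replicate 1 (53.2 against 39.2 normalized counts per kilobase). The order of the counts thus turned in CD24high replicates 2 and 3 and in CD24low replicate 3, where TGFB1 was then above TGFB2. The TGFB2 level on this scale may depend on how reads overlapping TGFB2-OT1 were counted, which is not given.

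LTBP1 showed the largest difference of the 10 genes, and no other LTBP separated the groups. LTBP1 (ENSG00000049323.15, chromosome 2, 32946972 to 33399509, plus strand), which cross-links the latent complex into fibronectin and fibrillin matrix, had 551, 566 and 340 normalized counts in CD24high replicates 1 to 3 and 1697, 2878 and 909 in CD24low replicates 1 to 3. Every CD24low library exceeded every CD24high library, and the highest library held 8.45 times the count of the lowest. Means were 486 ± 126 and 1828 ± 991, and the fold of 3.47 had a 95% interval of 1.99 to 6.05. Limma's adjusted p was 0.097, edgeR's 0.13 and DESeq2's 0.011. At low rRNA share the LTBP1 difference was 0.70 and at high share 2.69. Leaving out CD24low replicate 2 made it 1.39, and leaving out CD24low replicate 3 made it 2.22.

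LTBP2 (ENSG00000119681.11, chromosome 14, 74498170 to 74612378, minus strand), a matrix LTBP that does not bind latent TGF-beta, had 1748, 2011 and 2094 normalized counts in CD24high replicates 1 to 3 and 2269, 3075 and 1861 in CD24low replicates 1 to 3. CD24low replicate 3 lay inside the CD24high range and the other CD24low libraries above it (difference 0.27, SE 0.17, limma adjusted p = 0.53). LTBP3 (ENSG00000168056.15, chromosome 11, 65538805 to 65558930, minus strand), which carries the latent complex through secretion, had 465, 714 and 1349 in CD24high and 718, 858 and 628 in CD24low. CD24high replicate 3 alone was above all other libraries for LTBP3, and the difference of -0.070 (SE 0.32, limma adjusted p = 0.94) became 0.34 without it. LTBP4 (ENSG00000090006.17, chromosome 19, 40592883 to 40629818, plus strand), the LTBP of elastic fibres, had 143, 229 and 300 in CD24high and 250, 392 and 170 in CD24low, a difference of 0.26 (SE 0.33, limma adjusted p = 0.77) that was -0.051 without CD24low replicate 2.

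The make-up of the LTBP transcripts differed between the fractions in these libraries. Scaled to exon length, LTBP1 made up 22.8%, 19.5% and 10.4% of the summed LTBP level in CD24high replicates 1 to 3 and 39.8%, 45.5% and 30.2% in CD24low replicates 1 to 3. LTBP2 went the other way, with 51.8% to 58.2% in CD24high and 39.2% to 49.8% in CD24low, although its own mean count was higher there. With the longest transcript as the length, LTBP1 shares were 8.13% to 20.5% and 26.8% to 41.9%, and those of LTBP2, 37.0% to 48.1% and 33.1% to 40.5%, overlapped. These shares follow from the counts above and were not tested.

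**Figure D2:**
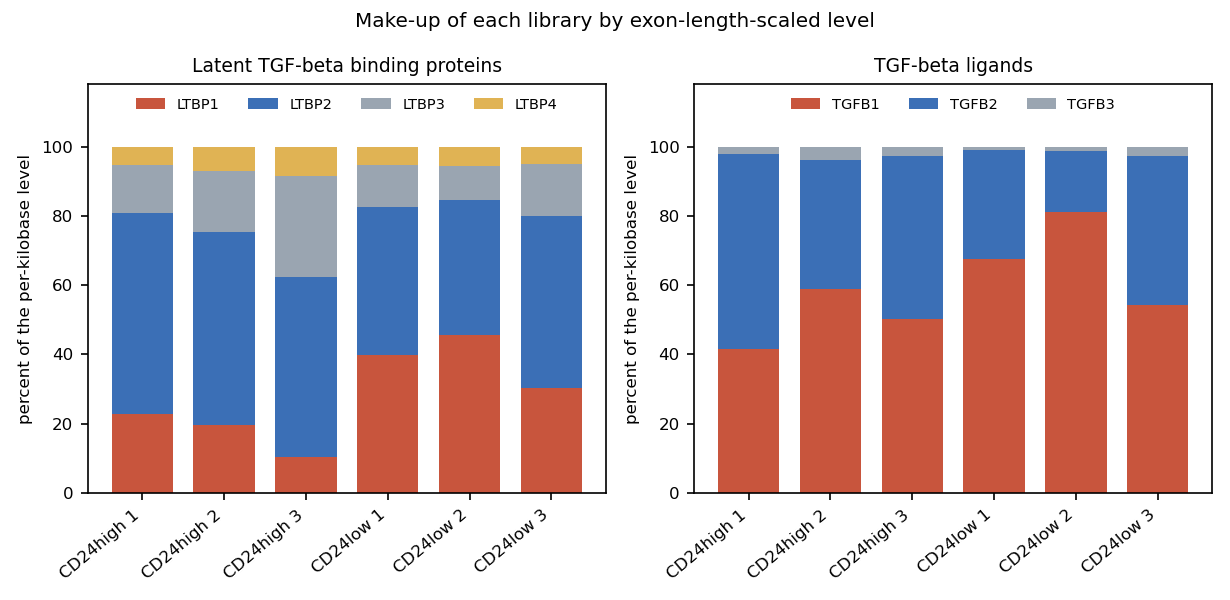
Percent of the summed level per kilobase of exon taken by each LTBP gene (left) and each TGF-beta ligand gene (right), 1 bar per library. The LTBP1 part is larger in each CD24low library (30.2% to 45.5%) than in each CD24high library (10.4% to 22.8%), and the TGFB1 parts of the fractions overlap.

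Of the receptors, the co-receptor TGFBR3 was higher in CD24low cells and the signalling receptors were not separated. TGFBR3 (ENSG00000069702.10, chromosome 1, 91680343 to 91906335, minus strand) had 144, 122 and 123 normalized counts in CD24high replicates 1 to 3 and 254, 374 and 150 in CD24low replicates 1 to 3. The CD24high libraries lay close together, and CD24low replicate 3 was barely above them. The fold was 1.87 with a 95% interval of 1.20 to 2.93; limma's adjusted p was 0.23 and DESeq2's 0.035. At low rRNA share the TGFBR3 difference was 0.18 and at high share 1.32; it was 0.59 without CD24low replicate 2.

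TGFBR2 (ENSG00000163513.17, chromosome 3, 30606502 to 30694142, plus strand) was the most even of the 10 genes, with 4286, 3799 and 4813 normalized counts in CD24high replicates 1 to 3 and 4078, 5080 and 4366 in CD24low replicates 1 to 3. The difference of 0.069 (SE 0.13; fold 1.05, 95% interval 0.86 to 1.28) had a limma adjusted p of 0.85. That interval leaves room for a change of up to 1.28-fold upward. TGFBR1 (ENSG00000106799.12, chromosome 9, 99104038 to 99154192, plus strand) had 1281, 788 and 687 in CD24high and 847, 720 and 686 in CD24low. CD24high replicate 1 stood above the other 5 libraries, and the difference of -0.24 (SE 0.21; fold 0.84, 95% interval 0.61 to 1.17; limma adjusted p = 0.65) was 0.023 without that library. The log2 ratio of TGFBR2 to TGFBR1 was 2.27 ± 0.53 in CD24high and 2.58 ± 0.28 in CD24low, with overlapping groups and p = 0.5 in the two-sided exact permutation test (0.5 adjusted over 2 ratios).

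TGFBI (ENSG00000120708.16, chromosome 5, 136028895 to 136063818, plus strand), a secreted adhesion protein named for its induction by TGF-beta, was the most abundant of the 10 genes. It had 18410, 11916 and 12002 normalized counts in CD24high replicates 1 to 3 and 20655, 21959 and 18680 in CD24low replicates 1 to 3. The CD24low libraries lay close together, and CD24high replicate 1 lay nearer to them than to the other CD24high libraries. The fold was 1.48 (95% interval 1.12 to 1.94), with adjusted p-values of 0.23 in limma and 0.069 in DESeq2. At low rRNA share the TGFBI difference was 0.33 and at high share 0.83; it was 0.77 without CD24high replicate 1.

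**Figure D3:**
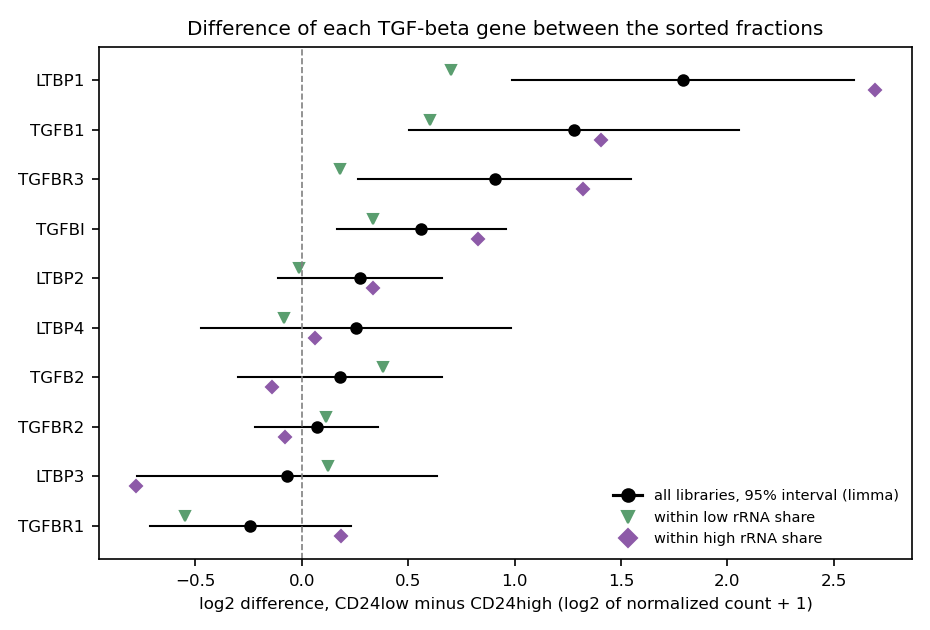
Log2 difference of each gene between CD24low and CD24high on the x axis: black points and bars are the difference over all libraries with its 95% interval from limma, triangles the difference at low rRNA share and diamonds that at high share, which have no test. LTBP1, TGFB1, TGFBR3 and TGFBI have intervals above 0 before adjustment for the number of genes, and in each of them the diamond lies to the right of the triangle.

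For the other 6 genes the sign of the difference differed between low and high rRNA share. For LTBP1, TGFB1, TGFBR3 and TGFBI it was positive in both sets, which follows from their lack of overlap and is no separate check. In CD24low replicate 3, which kept the most CD24 transcript of its group, the 4 genes were the lowest of their group. In CD24low replicate 2, which had the least CD24 transcript, they were the highest. LTBP2, LTBP3 and LTBP4, whose groups overlapped, were likewise lowest in CD24low replicate 3 and highest in CD24low replicate 2. The fibroblast marker sum followed the same order within CD24low, with its maximum of 3839 in replicate 2 and its minimum of 887 in replicate 3. Within CD24high the 4 genes did not all follow 1 order. TGFB1 was highest in CD24high replicate 3, which had the most CD24 transcript, and LTBP1 was lowest there. The part of these differences between libraries in the result was not tested. In bulk RNA, fewer cells with a transcript and less of it per cell cannot be told apart.

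Compared per kilobase of exon, TGFBI and TGFBR2 were the most abundant of the 10 in both fractions and TGFBR3 the least. TGFBI had 1807 ± 477 normalized counts per kilobase in CD24high and 2616 ± 211 in CD24low, and TGFBR2 had 914 ± 108 and 958 ± 110. In CD24high the order then ran LTBP2 (215 ± 19.8), TGFBR1 (134 ± 46.5), LTBP3 (81.8 ± 44.3), LTBP1 (66.3 ± 17.2), TGFB1 (50.4 ± 10.7), TGFB2 (47.4 ± 12.9), LTBP4 (27.6 ± 9.69) and TGFBR3 (14.9 ± 1.42). Neighbours from TGFBR1 down to LTBP4 overlapped between libraries, while the ranges of TGFBI, TGFBR2, LTBP2 and TGFBR1 followed each other without overlap, as did LTBP4 and TGFBR3. In CD24low, LTBP1 (249 ± 135) and TGFB1 (134 ± 71.8) came next after LTBP2 (264 ± 67.9), before TGFBR1 (110 ± 12.4), LTBP3 (71.3 ± 11.2), TGFB2 (52.5 ± 5.75), LTBP4 (33.4 ± 13.8) and TGFBR3 (29.8 ± 12.9). There the neighbours from LTBP2 to TGFBR1 and from TGFB2 to TGFBR3 overlapped. The top pair and the last place were the same when the longest transcript was taken as the length, but LTBP1 then ranked above LTBP2 in CD24low. LTBP3, at 190 ± 103 in CD24high and 165 ± 26.1 in CD24low on that length, then passed TGFBR1 in both fractions and TGFB1 in CD24low.

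**Figure D4:**
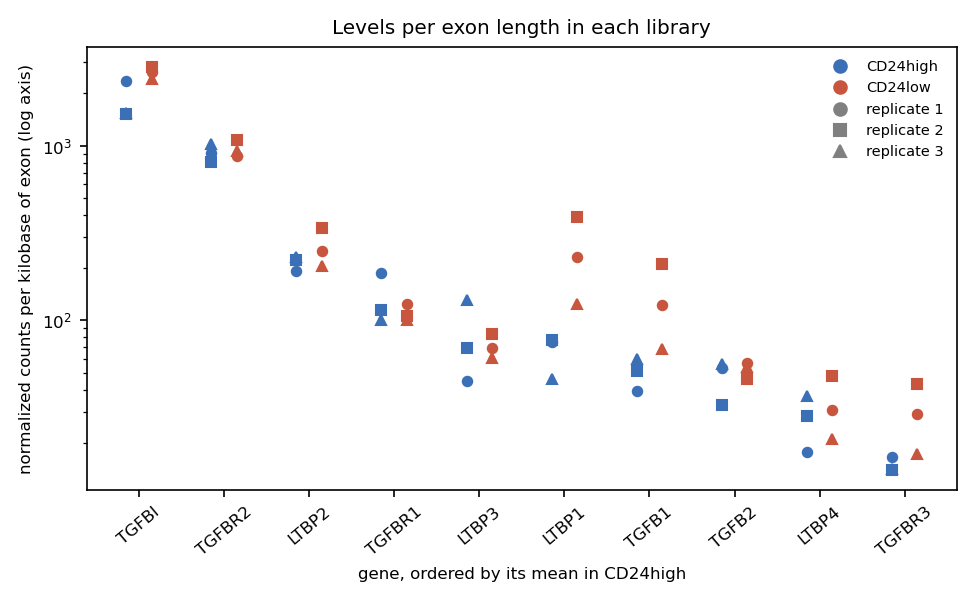
Normalized counts per kilobase of exon (log axis) of each gene, ordered on the x axis by its CD24high mean, with 1 point per library. TGFBI and TGFBR2 lead in both fractions, and the CD24low points of LTBP1 (124 to 393) and TGFB1 (68.4 to 211) lie above their CD24high points.

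The genes whose pattern over the 6 libraries was most like that of LTBP1, by the root mean square distance of centred log2 values among 11469 other genes with a mean of at least 100, were FBN1 (distance 0.099), IGFBP7 (0.15) and ZEB1 (0.17). FBN1, which encodes fibrillin, had 612, 550 and 313 normalized counts in CD24high replicates 1 to 3 and 1759, 3186 and 900 in CD24low replicates 1 to 3, almost the counts of LTBP1 itself. The nearest to TGFBR1, the gene with the lowest difference, were GNB4 (0.066), ALG10 (0.073) and CDC42P6 (0.074). These distances describe 6 libraries that share cells, sort and sequencing, and carry no test.

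In a list of matrix scaffold genes for latent complexes and of LTBP-like matrix genes, FN1, FBN1, FBN2 and EFEMP1 were higher in CD24low cells by DESeq2's test. Of 16 such genes, 9 were tested, 7 of which did not overlap in the higher direction and 0 in the lower, against 10.2% and 9.32% of all genes tested. DESeq2 called those 4 higher and 0 lower, against 1.36% and 1.15%, and limma called 0. The list's median difference was 1.15, beside -0.0066 for all genes tested. FN1, encoding fibronectin, had 2313 to 4167 normalized counts in CD24high and 10020 to 39759 in CD24low (difference 2.57, SE 0.42, limma adjusted p = 0.072, DESeq2 adjusted p = 0.0012). FBN2, encoding the other main fibrillin, had 1143 to 1455 and 1976 to 4035 (1.15, SE 0.22, DESeq2 adjusted p = 2.7e-05). EFEMP1 had 1502 to 1938 and 2133 to 2806 (0.51, SE 0.14, limma adjusted p = 0.18), with a DESeq2 adjusted p of 0.047, close to the threshold. DCN, which binds TGF-beta, had 10.2 to 325 and 846 to 3704 and did not pass either test (4.16, SE 1.05). MFAP5, of microfibrils, had the lowest difference of the list at -2.56 and overlapped at no more than 37.3 normalized counts. Without CD24low replicate 2 the list's median was 0.56 and DESeq2 called 2 (0.854% of all genes), and it called 2 without CD24high replicate 1, CD24high replicate 2 or CD24low replicate 1 (1.21% to 1.51%). DESeq2 called 3 without CD24high replicate 3 (1.4%), and 6 higher and 1 lower without CD24low replicate 3 (5.24%). FN1 and FBN2 were called with any 1 library left out. FBN1 was called only without CD24low replicate 3, and EFEMP1 only without CD24high replicate 3 or CD24low replicate 3.

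Genes that release the ligand were not higher in CD24low cells as a list. Of 16 listed, 12 were tested; DESeq2 called 0 higher and 1 lower, against 1.36% and 1.15% of all genes tested, limma called 0, and the median was -0.16. The gene called was ITGB6, the beta subunit of an epithelial integrin that activates latent TGFB1, with 3431, 2834 and 2351 normalized counts in CD24high replicates 1 to 3 and 1308, 831 and 1699 in CD24low replicates 1 to 3. All CD24low libraries were below all CD24high libraries (difference -1.21, SE 0.24, limma adjusted p = 0.095, DESeq2 adjusted p = 8.2e-05). ITGB6 differed by -0.88 and -1.17 within low and high rRNA share, where the sign follows from the lack of overlap. DESeq2 also called ITGB6 lower with any 1 library left out (adjusted p 8.8e-08 to 0.014). ITGB8, another integrin subunit that activates TGF-beta, overlapped (-0.26, SE 0.12), as did THBS1, encoding the activator thrombospondin (-0.39, SE 0.21), and PLAT, a plasminogen activator (0.78, SE 0.31). The integrin subunit gene ITGB3 was untested at a mean of 9.62. It had 0 to 7.47 normalized counts in CD24high and 9.70 to 22.9 in CD24low, without overlap. LRRC32, which displays latent TGF-beta on regulatory T cells, and NRROS, its relative of myeloid cells, had at most 1 read in any library.

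The carriers of the signal showed small differences between the fractions. Of 16 genes for SMADs and their regulators, all were tested. Limma and DESeq2 called 0, against 0.0% and 2.51% of all genes tested. SMURF1, below an unadjusted limma p of 0.05, was lower in CD24low without overlap, and SMAD6 was higher without overlap. All others overlapped, while 10.2% of all genes tested did not overlap in the higher direction and 9.32% in the lower. The median was 0.0052, and the differences ran from -0.44 for BAMBI, a decoy receptor, to 0.56 for SMAD6, an inhibitory SMAD. SMAD2, SMAD3 and SMAD4 differed by -0.035, 0.15 and -0.0077. SMURF1, a ubiquitin ligase that removes receptors, had the smallest p (-0.27, SE 0.12), ahead of BAMBI, PMEPA1 and SMURF2 among genes with a mean of at least 100. Of another list of 6 genes, which held other receptors, TGFB3 and further genes, 5 were tested. DESeq2 called 1 higher and 0 lower, against 1.36% and 1.15% of all genes tested. The gene called was TGFB1I1, a focal adhesion adaptor, with 59.7 to 78.9 normalized counts in CD24high and 86.2 to 217 in CD24low. Its difference was 0.99 (SE 0.31, DESeq2 adjusted p = 0.044, limma adjusted p = 0.22). With 1 library left out, DESeq2 called TGFB1I1 only without CD24low replicate 3. The co-receptor ENG overlapped (0.15, SE 0.30), and ACVRL1, the type I receptor of endothelium, was not above 0.96 normalized counts.

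Genes known as TGF-beta targets went in both directions. Of 24 listed, 22 were tested, and DESeq2 called 4 higher and 3 lower, against 1.36% and 1.15% of all genes tested; limma called 0. The list's median was 0.24, and 0.019 without CD24low replicate 2. Those called higher were LOXL2, a collagen cross-linking oxidase (1.61, SE 0.32, DESeq2 adjusted p = 6.0e-06), TAGLN, an actin-binding protein of contractile cells (2.04, SE 0.43), ITGA5, the fibronectin receptor subunit (1.10, SE 0.25), and CTGF, a matricellular growth factor modulator (0.91, SE 0.22). CTGF had 895, 720 and 847 normalized counts in CD24high replicates 1 to 3 and 2099, 1673 and 1039 in CD24low replicates 1 to 3, so the groups did not overlap. Those called lower included CDKN1A, encoding the cell cycle inhibitor p21 (-0.48, SE 0.13), and the chromatin protein gene HMGA2 (-0.46, SE 0.12). SMAD7, the feedback inhibitor, overlapped, with 96.4 to 147 normalized counts in CD24high and 111 to 194 in CD24low (0.22, SE 0.25). Without CD24low replicate 3 DESeq2 called 7 of the targets higher and 3 lower (5.24% of all genes). Without any other 1 library it called 3 higher and 0 to 2 lower (0.854% to 1.51% of all genes), with 0 lower without CD24high replicate 1 or CD24low replicate 2.

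**Figure D5:**
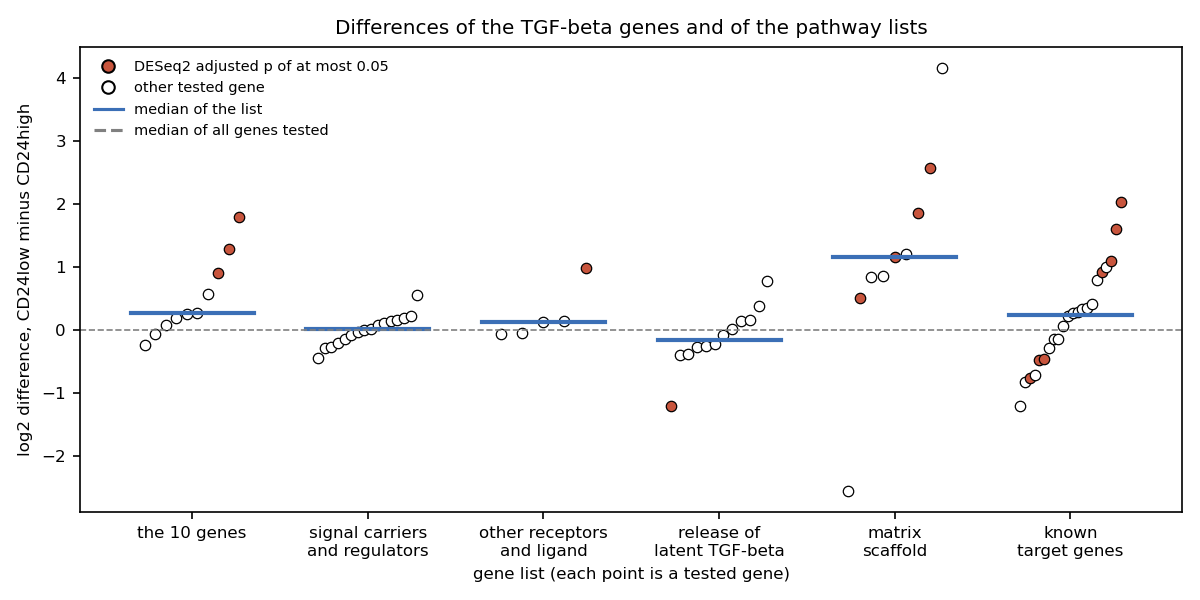
Log2 difference of each tested gene (points) in the group of 10 genes and in the 5 lists of other pathway genes, with the list median (blue line) and the median of all genes tested (dashed); filled points passed DESeq2's adjusted p. The matrix scaffold list has the highest median (1.15), the list of signal carriers lies near 0, and the target list holds filled points above and below 0.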

How the data were processed

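The deposited signal values are normalized counts, made by the authors by dividing each gene's count by a size factor for its library, as the values themselves show. The submitters' processing notes name STAR 2.5.2, R 3.5.0, DESeq2 and hg38; which counter, strand setting and annotation release were used is not given in the sources used here. Values were whole multiples of 1 step per library (100% within 0.1 reads; 1 read was worth 0.83 to 1.46 normalized counts), so reads were recovered. Of 58381 IDs, 58216 matched GENCODE 29 without version.

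The main test was limma 3.58.1 (R 4.3.3) on log2 (normalized count + 1) with its variance trend along the mean, group as the only term, two-sided, over the 16047 genes whose mean reached 10, with Benjamini-Hochberg adjustment at 0.05; 95% intervals are unadjusted. DESeq2 1.42.0 and edgeR 4.0.16 (TMM) used the recovered reads of the same genes. Fits were tested on simulated data. Levels per kilobase used the union of GENCODE 29 exons. Replicates differed by more than sampling noise, and each was counted once. The members, the 5 lists and all tests were chosen with earlier results of these data known. Besides the 10 genes, the rule named up to 4 genes per list (mean at least 100, smallest limma p) and the 3 nearest patterns of the genes with the highest and the lowest difference; others named were chosen after their values were seen. Alternatives, with leave-one-out DESeq2 fits and edgeR with a block added after seeing the data, covered pseudocount, filter, scaling, trend, tool, rRNA share, block and single libraries. Some genes of the target list are counted but not reported here by name.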

Additional observations from a re-analysis of the deposited data

How the results depend on the processing

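Limma's count of 0 of the 10 genes (0 of all genes tested) was 1 (164 of 31231) with no filter, 3 (402) with DESeq2, 2 (103) without both libraries numbered 3, and 3 (366) without CD24low replicate 3; with any 1 library left out it ran from 0 to 3 (0 to 366). DESeq2's 3 ran from 1 to 3 with 1 library left out. With the replicate number as a block the counts were 3 (716, or 4.46%) in limma and 3 (705, or 4.39%) in edgeR, in both LTBP1, TGFB1 and TGFBR3. Deviations of same-numbered libraries correlated at 0.051 to 0.30, and since 1 of 3 numbers was below 0.1 they were not taken as pairs, although 5 of 6 libraries correlated best with their own number. LTBP1, TGFB1, TGFBR3, TGFBI and LTBP2 kept their sign under all 25 alternatives fitted. For all of these but LTBP2 the groups did not overlap. In those genes neither the pseudocount nor leaving out libraries could turn limma's sign, so most alternatives could not have failed. With 1 library left out, limma's differences ran from -0.068 to 0.33 for TGFB2, -0.43 to 0.023 for TGFBR1, -0.020 to 0.15 for TGFBR2, -0.43 to 0.34 for LTBP3 and -0.051 to 0.55 for LTBP4. DESeq2's sign turned without CD24high replicate 2 for TGFB2 (-0.062) and TGFBR2 (-0.014), without CD24low replicate 2 for TGFBR2 (-0.033) and LTBP4 (-0.091), without CD24high replicate 1 for TGFBR1 (0.019) and without CD24high replicate 3 for LTBP3 (0.32). Limma's also turned without both libraries numbered 3 for LTBP3 (0.45) and with rRNA share as a covariate for LTBP4 (-0.011). None of the turned values passed the threshold. The causes were not tested. The ratio differences kept their sign with either pseudocount and with any 1 library left out. Depth was at least 84 reads for each of the 10 genes in each library.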
